A study of Mus musculus with 30 samples.

Results

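The 8 genes described here, which belong to Schwann cells and to the myelin sheath that these cells make, were followed in the mouse abdominal aorta: Sox10, Cdh19, S100b, Scn7a, Mbp, Mag, Pmp22 and Prx. They were the probes whose gene name on the array equals one of these symbols, 11 of 55657 probes, and they stood for 8 of the 23267 genes tested. All 8 were measured: each had at least 1 probe well above background on all 3 arrays of at least 1 group. The RNA of aortic tissue was hybridised to 30 single-sample Agilent arrays (1 dye), 3 for each of 10 groups of mice of strain C57BL/6. Wild type (WT) and B cell-deficient uMT mice gave samples without an operation (pre) and at 7 or 42 days after 0.5 M CaCl2 was applied around the aorta, which induces an aneurysm, or after saline was applied in its place (sham). Every sample, the pre and sham samples included, carries the tissue label abdominal aortic aneurysm. Nothing in the labels says that the 3 arrays of a group came from separate mice, so p values measure the spread between these arrays, which may be technical.

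Schwann cells are the glia of peripheral nerve. They wrap axons, and around the larger axons some of them build the lipid-rich, compacted membrane called myelin. The artery wall is supplied by fine autonomic and sensory nerves in its outer layer, whose axons are for the most part bundled by Schwann cells that make no myelin. After a nerve is injured, myelinating Schwann cells take down their myelin program, turn on repair genes such as Ngfr and Gap43, and can later make myelin again. Several of the 8 genes are also used elsewhere: Sox10 in melanocytes, S100b in fat and cartilage cells, Pmp22 in fibroblasts and other cells outside nerve, Prx in endothelium, and Mbp, through a longer transcription unit, in cells of the immune system. RNA from whole tissue cannot tell fewer cells of a type from less RNA per cell.

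Levels below are log2 processed signal minus the 75th percentile of the same array, so that a level of 0 is that percentile. A change is the log2 difference between 2 groups, given ± the standard error from a limma fit over all 30 arrays (n = 3 arrays per group), and adjusted p values are over 23267 genes with a threshold of 0.05. On each array 36.5% to 61.8% of the probes were well above background. One array, WT sham day 42 replicate 2, stood apart: its correlation with its group mates was 0.718 to 0.727 over probes, against 0.945 or more for every other pair within a group. It lay alone on its slide and was the only array of its scan day. Its 75th percentile intensity, 36.1, was the lowest of the 30. Counts are therefore given with and without it. The arrays came from 5 slides. The WT day 7 comparison of CaCl2 with sham and both uMT comparisons share no slide between their groups, so slide and treatment cannot be told apart there. WT and uMT arrays shared only slide 3, where the only uMT array was pre replicate 1. Slide and genotype can therefore hardly be told apart.

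Sox10 is the transcription factor that sets and keeps Schwann cell identity and drives myelin genes. Its level was -1.78, -1.92 and -1.52 in WT pre, -1.68, -1.89 and -1.99 in WT sham day 7, and -1.57, -1.21 and -1.94 in WT sham day 42. In WT mice after CaCl2 it was -1.48, -1.16 and -1.93 at day 7 and -1.52, -1.18 and -1.45 at day 42. At both days the WT CaCl2 arrays overlapped the sham arrays. In uMT mice it was -0.92, -1.85 and -1.41 in pre, -1.72, -1.67 and -1.99 in sham day 7, -1.45, -1.08 and -1.03 in sham day 42 and -2.85, -1.31 and -1.5 in CaCl2 day 7. The 3 arrays of uMT CaCl2 day 42 read 0.15, -0.12 and 0.45 and were the 3 highest of all 30. In that comparison with sham Sox10 rose by 1.35 ± 0.32 (adjusted p = 0.0118). The same comparison in WT mice gave 0.19 ± 0.32 (adjusted p = 0.717), and the difference between genotypes was 1.16 ± 0.45, which did not pass the test (adjusted p = 0.774).

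Cdh19 encodes an adhesion protein of the cadherin family that is made by Schwann cells and their precursors. Its signal was close to background, with a probe well above it on 15 of 30 arrays, and on none of the arrays of uMT pre, uMT sham day 42 and uMT CaCl2 day 7. In WT mice it was -3.08, -3.10 and -2.92 in pre, and -3.14, -2.57 and -2.99 in CaCl2 day 42. The other 3 WT groups ran lower or wider, from -4.83 to -2.92. In uMT CaCl2 day 42 its values were -2.12, -2.69 and -1.16, all 3 well above background, against -3.42, -3.79 and -4.65 in sham, none of them well above it. The fitted rise was 1.96 ± 0.53 (adjusted p = 0.0256). As the sham level is a bound, Cdh19 was at least 2.03-fold higher. WT mice gave 0.44 ± 0.53 at day 42 (adjusted p = 0.592), and the genotype difference, which rests on that bound, did not pass the test (adjusted p = 0.774). The values of uMT CaCl2 mice at day 7 were -5.86, -3.82 and -5.15, none of them well above background.

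**Figure D1:**
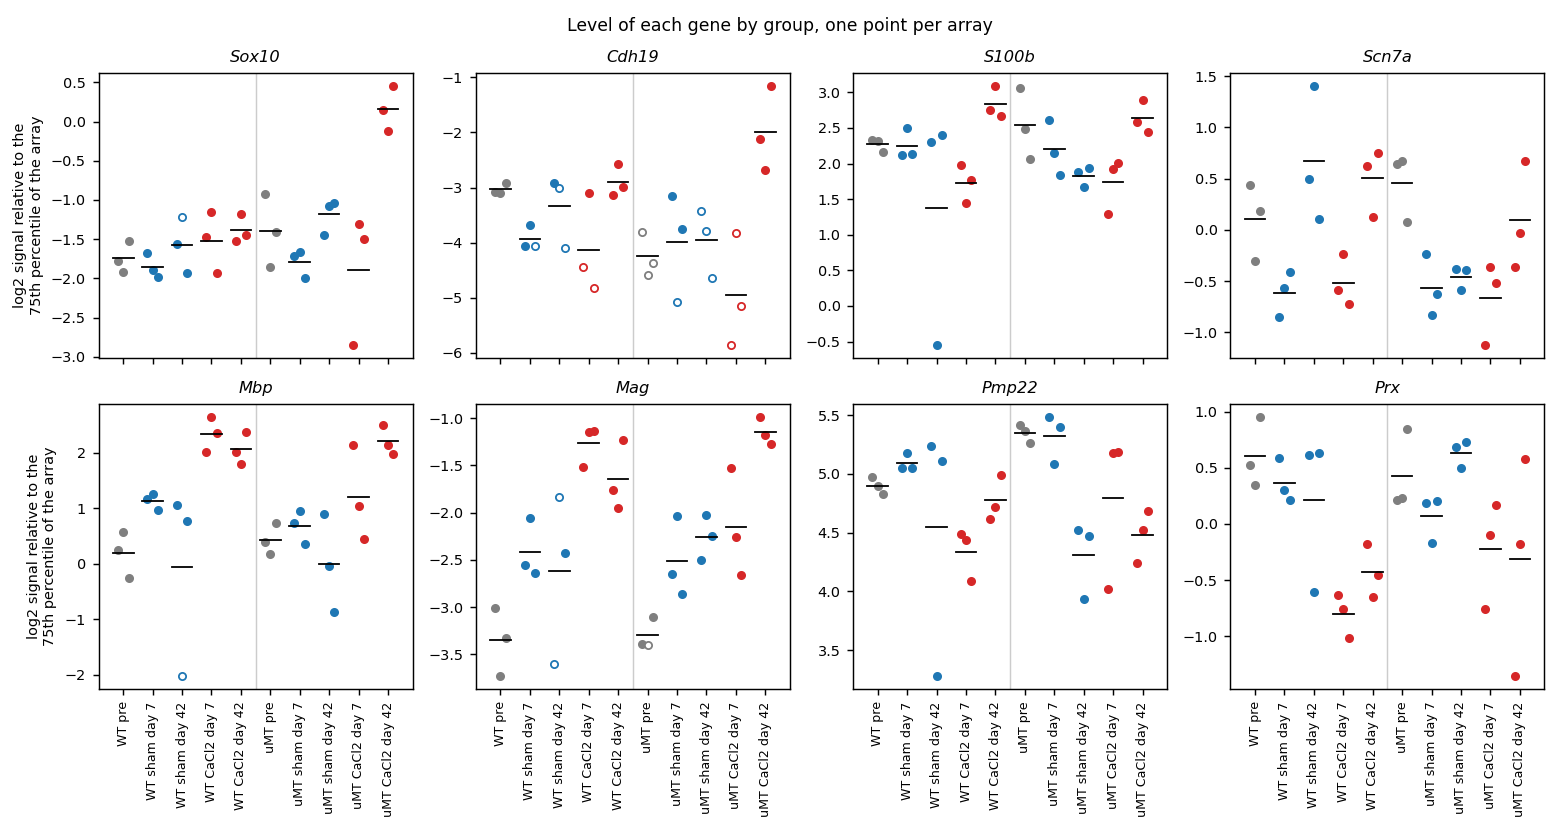
Level of each of the 8 genes (log2 signal relative to the 75th percentile of the array) in the 10 groups, WT on the left and uMT on the right of each panel; a point is an array, an open point is an array on which the probe was not well above background, and a line is the mean of 3 arrays (grey pre, blue sham, red CaCl2). The 3 uMT CaCl2 day 42 arrays were the highest 3 for Sox10, and all WT CaCl2 arrays lay above all other WT arrays for Mbp.

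S100b is a calcium-binding protein abundant in Schwann cells. It read 2.33, 2.31 and 2.16 in WT pre, 2.12, 2.50 and 2.14 in WT sham day 7 and 1.97, 1.45 and 1.77 in WT CaCl2 day 7. At day 42 the WT CaCl2 arrays read 2.75, 3.09 and 2.66, above the WT sham arrays at 2.30, -0.55 and 2.40. The sham array at -0.55 is the one that stood apart. The change was 1.45 ± 0.47 (adjusted p = 0.051) with it and 0.49 ± 0.27 (adjusted p = 0.239) without it. In uMT mice the values were 3.06, 2.49 and 2.07 in pre, 2.61, 2.14 and 1.84 in sham day 7, 1.29, 1.93 and 2.01 in CaCl2 day 7, 1.88, 1.67 and 1.94 in sham day 42 and 2.59, 2.90 and 2.45 in CaCl2 day 42. The day 42 groups of uMT mice did not overlap, and their difference of 0.81 ± 0.47 missed the threshold (adjusted p = 0.393), but passed it without the array that stood apart (0.81 ± 0.24, adjusted p = 0.0255), an array of neither group that widens the common estimate of the spread.

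Scn7a encodes a sodium-sensing channel protein found in Schwann cells that do not make myelin. CaCl2 changed it in none of the 4 comparisons with sham, where its differences ran from -0.17 to 0.55 (adjusted p from 0.392 to 0.918). Sham arrays differed from pre arrays instead. In uMT mice it was 0.64, 0.67 and 0.08 before the operation, -0.23, -0.83 and -0.63 in sham day 7 and -0.38, -0.59 and -0.39 in sham day 42. Sham arrays at both times lay below all pre arrays. The difference was -1.03 ± 0.32 at day 7 (adjusted p = 0.0864, and 0.0183 without the array that stood apart) and -0.92 ± 0.32 at day 42 (adjusted p = 0.0485), where the fall passed the test. In WT mice pre arrays read 0.44, -0.30 and 0.19 and sham day 7 arrays -0.85, -0.57 and -0.41, again without overlap, with a difference of -0.72 ± 0.32 (adjusted p = 0.455). WT sham day 42 read 0.50, 1.40 and 0.11, where the array at 1.40 is the one that stood apart. Its difference from WT pre went the other way, at 0.56 ± 0.32, and did not pass (adjusted p = 0.257).

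Mbp encodes myelin basic protein, which holds the inner faces of the myelin membrane together. Over all 30 arrays it was higher after CaCl2 than after sham at day 42 in both genotypes. WT arrays read 0.24, 0.57 and -0.26 in pre, 1.16, 1.26 and 0.96 in sham day 7 and 1.05, -2.02 and 0.77 in sham day 42. After CaCl2 they read 2.0, 2.64 and 2.35 at day 7 and 2.01, 1.80 and 2.37 at day 42, above every WT array without CaCl2. The change was 1.21 ± 0.55 at day 7 (adjusted p = 0.217) and 2.13 ± 0.55 at day 42 (adjusted p = 0.0151). Without the array that stood apart, which is the one at -2.02, these were 1.21 ± 0.37 (adjusted p = 0.0295) and 1.15 ± 0.42 (adjusted p = 0.0712), so which of the days passed the test turned on 1 array. On the slide that holds all 3 WT CaCl2 arrays and 1 sham array of day 42, the difference was 1.29.

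In uMT mice Mbp read 0.39, 0.17 and 0.73 in pre, 0.72, 0.96 and 0.35 in sham day 7 and 0.89, -0.04 and -0.86 in sham day 42. CaCl2 arrays read 2.14, 1.03 and 0.44 at day 7, where 1 of them lay among the sham arrays, and 2.51, 2.14 and 1.98 at day 42, above all sham arrays. The rise was 2.21 ± 0.55 at day 42 (adjusted p = 0.0165). The day 7 difference was 0.53 ± 0.55 (adjusted p = 0.714). Genotypes did not differ in the response by this test, with -0.68 ± 0.78 at day 7 (adjusted p = 0.9999) and 0.08 ± 0.78 at day 42 (adjusted p = 0.98). Without the array that stood apart the day 42 difference was 1.06 ± 0.56, which did not pass either (adjusted p = 0.523).

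Mbp has 3 probes, and they did not give the same size of change. The brightest, described so far and called probe 1, lies at chr18:82727929-82727988 of mm9 and is assigned by the array to transcript variant 8. Probe 2 lies at chr18:82691469-82691528 and probe 3 spans chr18:82742266-82744570, both assigned to variant 7. Averaged over the 4 comparisons of CaCl2 with sham, and fitted probe by probe over 33224 probes, the change was 1.52 ± 0.28 for probe 1 (adjusted p = 2.1e-04), 0.74 ± 0.22 for probe 2 (adjusted p = 0.0138) and 0.38 ± 0.25 for probe 3 (adjusted p = 0.282). Leaving out the array that stood apart gave 1.27 ± 0.19, 0.92 ± 0.16 and 0.33 ± 0.26 (adjusted p = 2.39e-05, 1.21e-04 and 0.316). At day 42 in WT mice probe 2 gave 0.28 ± 0.44 (adjusted p = 0.695), with CaCl2 arrays at -1.31, -1.60 and -0.63 and sham arrays at -1.96, -0.02 and -2.41. It gave 1.01 ± 0.35 (adjusted p = 0.068) without the array that stood apart, near the 1.15 of probe 1. That array was the highest of all 30 for probe 2 and the lowest of all 30 for probe 1. Probe 3 was well above background on 23 of 30 arrays and changed in none of these comparisons. From pre to sham day 7 in uMT mice it gave -1.85 ± 0.50 (adjusted p = 0.0483, and 0.0211 without the array that stood apart). Probes 1 and 2 gave 0.25 and -0.44 there (adjusted p = 0.886 and 0.688). Probe 3 was well above background on 2 of the 3 sham arrays of that day. In uMT pre it read -1.77, -2.15 and -3.15, and in uMT CaCl2 day 42 it read -2.39, -2.84 and -1.57.

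**Figure D2:**
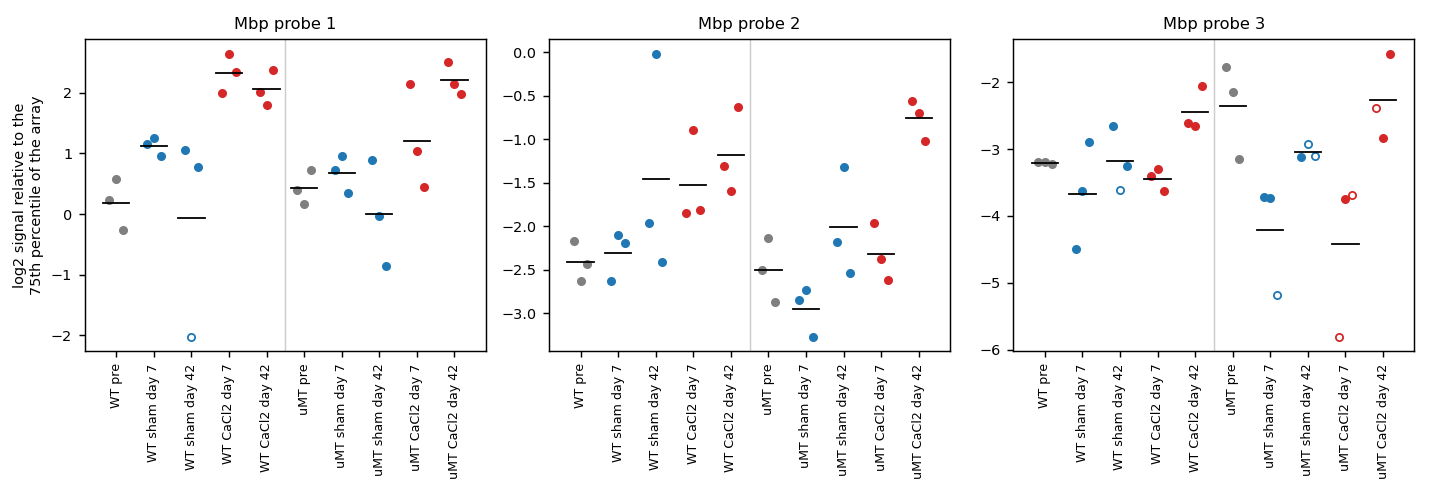
Level at the 3 probes of Mbp (log2 signal relative to the 75th percentile of the array, each panel on its own scale) in the 10 groups, drawn as in the plot of all 8 genes. At probe 1 the red CaCl2 points stood above the blue sham points of the same day and genotype in 3 of 4 comparisons and overlapped them in uMT mice at day 7; the average changes at the 3 probes were 1.52, 0.74 and 0.38.

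Mag encodes myelin-associated glycoprotein, which sits on the myelin face next to the axon. Its arrays read -3.01, -3.73 and -3.33 in WT pre, -2.55, -2.05 and -2.64 in WT sham day 7 and -3.60, -1.84 and -2.43 in WT sham day 42. After CaCl2 they read -1.52, -1.15 and -1.14 at day 7 and -1.76, -1.95 and -1.23 at day 42. The day 7 groups did not overlap, and the rise of 1.15 ± 0.35 passed the test at its edge (adjusted p = 0.0499, and 0.013 without the array that stood apart). Leaving out any 1 of the 6 arrays compared ended that call, with differences from 1.04 to 1.33. At day 42 the difference was 0.97 ± 0.35 (adjusted p = 0.0756), and 1.37 ± 0.34 without the array that stood apart (adjusted p = 0.0133). Mag was well above background on 1 of the 3 WT sham arrays of day 42, so its level there is close to background.

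In uMT mice Mag read -3.39, -3.40 and -3.11 in pre, -2.65, -2.04 and -2.86 in sham day 7, -2.50, -2.02 and -2.25 in sham day 42, -1.53, -2.25 and -2.66 in CaCl2 day 7 and -0.99, -1.18 and -1.28 in CaCl2 day 42. All sham arrays lay above all pre arrays, and all CaCl2 day 42 arrays above all sham arrays. Mag was higher in sham than in pre arrays, by 1.04 ± 0.35 at day 42 (adjusted p = 0.043). At day 7 it was higher by 0.78 ± 0.35, which did not pass (adjusted p = 0.258). The part of the operation itself was not tested. Beyond sham, the CaCl2 difference was 1.11 ± 0.35 at day 42 (adjusted p = 0.0601, and 0.0167 without the array that stood apart).

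Pmp22 encodes a membrane protein of compact myelin. CaCl2 gave no rise in it that passed the test. WT arrays read 4.97, 4.90 and 4.83 in pre, 5.05, 5.18 and 5.05 in sham day 7, 4.49, 4.44 and 4.09 in CaCl2 day 7, 5.24, 3.28 and 5.11 in sham day 42 and 4.61, 4.72 and 4.99 in CaCl2 day 42. At day 7 all CaCl2 arrays lay below all sham arrays, with a difference of -0.75 ± 0.36 (adjusted p = 0.241) that passed without the array that stood apart (adjusted p = 0.0295). In uMT mice pre arrays read 5.41, 5.36 and 5.27 and sham day 42 arrays 4.53, 3.93 and 4.47, a fall of -1.04 ± 0.36 (adjusted p = 0.0484). CaCl2 day 42 arrays stayed at that level, at 4.24, 4.52 and 4.68.

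The second Pmp22 probe did not show that fall: from pre to sham day 42 in uMT mice it gave -0.13 (adjusted p = 0.842). It read 3.89, 4.28 and 3.31 before the operation and 3.31, 3.21 and 4.55 after it. On the average of the CaCl2 comparisons it gave -0.68 ± 0.20 (adjusted p = 0.0144), against -0.22 ± 0.18 for the brighter probe (adjusted p = 0.41). Both passed on that average without the array that stood apart, with -0.55 ± 0.17 (adjusted p = 0.0146) and -0.38 ± 0.12 (adjusted p = 0.0154). The array assigns both probes to the same Pmp22 transcript, and they begin 1127 bases apart in the genome. The brighter one is at chr11:62972989-62973048 of mm9, and the second, at chr11:62971862-62971921, is printed from the array file because the choice of probe decides whether the fall from pre to sham is seen:

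Pmp22 second probe: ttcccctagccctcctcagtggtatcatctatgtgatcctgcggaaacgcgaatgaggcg

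Prx encodes periaxin, a scaffold that links the myelinating Schwann cell membrane to its surroundings. It moved against Mbp and Mag. WT arrays read 0.53, 0.35 and 0.95 in pre, 0.58, 0.31 and 0.21 in sham day 7 and 0.61, -0.61 and 0.63 in sham day 42. After CaCl2 they read -0.63, -0.75 and -1.01 at day 7 and -0.18, -0.65 and -0.46 at day 42. Every WT CaCl2 array lay below every WT array without CaCl2 except the one that stood apart, at -0.61. The difference was -1.17 ± 0.37 at day 7 (adjusted p = 0.0601, and 0.0169 without that array) and -0.64 ± 0.37 at day 42 (adjusted p = 0.257, and -1.05 ± 0.36 with adjusted p = 0.0595 without that array). In uMT mice it was -0.30 ± 0.37 at day 7 (adjusted p = 0.766) and -0.95 ± 0.37 at day 42 (adjusted p = 0.141), where CaCl2 arrays spread from -1.35 to 0.58 and sham arrays read 0.68, 0.50 and 0.73. Averaged over the 4 comparisons Prx fell by 0.76 ± 0.19 (adjusted p = 0.00305).

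RefSeq's promoter table (GRCm38.p6) held 10 entries for 5 of the 8 genes: Mag, Prx, S100b, Scn7a and Pmp22. The 250 bases before the start of Mag, which rose on the average of the CaCl2 comparisons, and of Prx, which fell, are shown as the pair of myelin genes that moved in opposite directions. They were searched on both strands for ACAAAG or ACAATG, the core that SOX factors bind, and for GCGNGGGCG, the site of EGR factors such as Egr2. Capitals mark a match. The Mag window, of the most upstream of its 3 starts, lies at chr7:30914923-30915172 on the minus strand and the Prx window at chr7:27499074-27499323 on the plus strand, both 5′ to 3′ along the gene.

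Mag: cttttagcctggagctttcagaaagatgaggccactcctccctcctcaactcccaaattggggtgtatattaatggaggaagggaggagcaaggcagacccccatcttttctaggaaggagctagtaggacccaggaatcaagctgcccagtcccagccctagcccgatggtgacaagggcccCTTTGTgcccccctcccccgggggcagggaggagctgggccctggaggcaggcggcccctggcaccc
Prx: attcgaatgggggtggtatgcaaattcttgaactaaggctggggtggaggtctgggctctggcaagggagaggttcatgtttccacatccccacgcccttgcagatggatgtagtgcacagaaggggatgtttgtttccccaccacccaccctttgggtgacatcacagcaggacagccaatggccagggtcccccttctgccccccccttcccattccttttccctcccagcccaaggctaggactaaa

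The Mag window held 1 SOX core, which begins 67 bases before the start, and the Prx window held none. Such a core is common: 25.2% of the 32851 promoter windows of this length hold one. Of the 10 windows of the 5 genes, 2 held it, both of Mag and overlapping. An EGR site was in 4.70% of all windows and in 1 of the 10, that of Scn7a.

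Counted together, 1 of the 8 genes passed the test for CaCl2 against sham in WT mice at day 7 (Mag, higher), where 6.59% of all genes passed. At day 42 in WT mice it was 1 of 8 (Mbp, higher), against 10.4% of all genes. In uMT mice none of the 8 passed in limma at day 7 (0 also at an unadjusted p under 0.05), against 0.894% of all genes, and 3 passed at day 42 (Mbp, Sox10 and Cdh19, all higher), against 6.33%. On the average of these 4 comparisons 4 passed: Mbp rose by 1.52 ± 0.28 (adjusted p = 2.06e-04), Mag by 0.90 ± 0.18 (adjusted p = 4.13e-04) and Sox10 by 0.44 ± 0.16 (adjusted p = 0.0419), and Prx fell. The background there was 27.1% of all genes. The median of the 8 changes was 0.96 in uMT mice at day 42, beside -0.04 over all genes tested, and -0.05, 0.34 and -0.20 in WT day 7, WT day 42 and uMT day 7, beside 0.09, 0.05 and -0.02.

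Without the array that stood apart 4 passed in WT mice at day 7 (Mbp and Mag higher, Pmp22 and Prx lower), against 18.4% of all genes, and 1 at day 42 (Mag), against 12.3%. In uMT mice it was none at day 7 in limma (1 at an unadjusted p under 0.05, Pmp22), against 9.82%, and 5 at day 42 (Mbp, Sox10, Cdh19, S100b and Mag, all higher), against 15% of all genes. The average then held 5 (Mbp, Mag and Sox10 higher, Pmp22 and Prx lower), against 45% of all genes. All these shares of all genes are for adjusted p values and are no background for the counts at an unadjusted p.

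The uMT day 42 count was 1 (Sox10) without replicate 2 or replicate 3 of uMT sham, or without replicate 1 of uMT CaCl2, each left out alone. With the slide as a random block, no gene of the 8 passed in any CaCl2 comparison over all 30 arrays, while with the slide as a block and without the array that stood apart 6 passed in uMT mice at day 42 (5 higher, 1 lower). Over the alternatives the number of all genes that passed in uMT mice at day 42 ran from 0 to 4879 (1473 in the main fit). Leaving out the 6 arrays with under 50% of probes well above background, a setting chosen after the data were seen, left 1 array in each uMT group of day 42, each assumed to vary like the other groups. No gene of the 8 passed there, which says little at 1 array against 1.

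**Figure D3:**
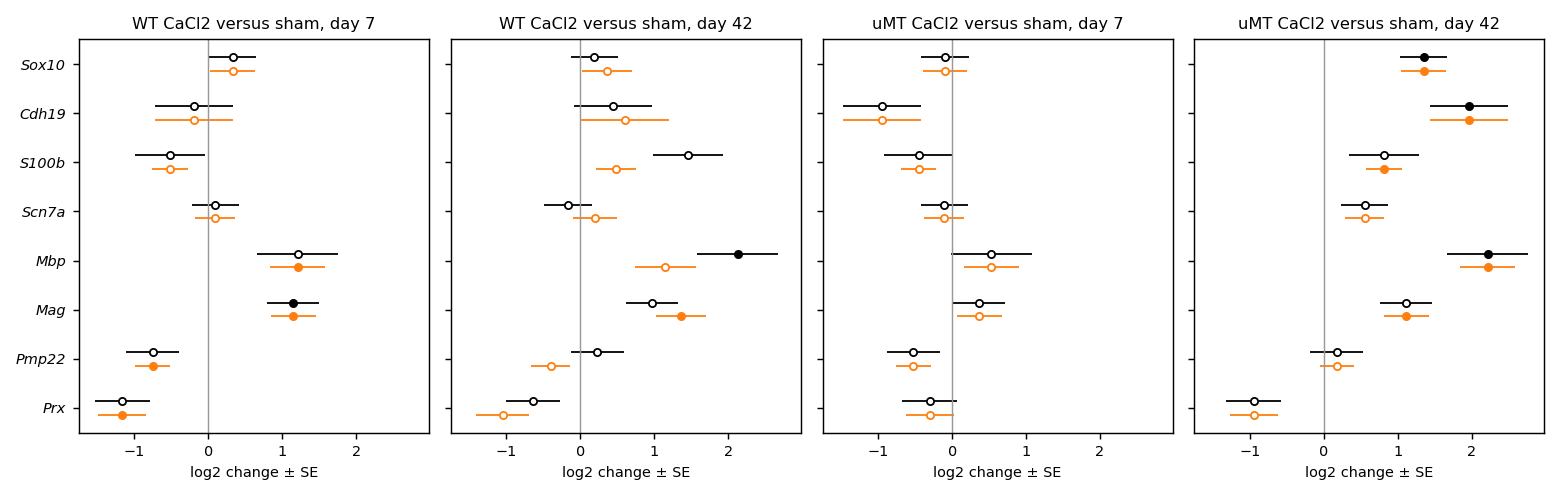
Change from sham to CaCl2 (log2, ± SE of the fit) of the 8 genes in the 4 comparisons, from all 30 arrays (black) and without WT sham day 42 replicate 2 (orange); a filled point has an adjusted p under 0.05. Mbp and Mag lay right of zero and Prx left of it in all 4 panels, and Sox10 and Cdh19 were filled in uMT mice at day 42.

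Differences between the responses were tested directly. None of the 8 differed between genotypes at day 7 or at day 42, where 0% and 0.107% of all genes did, and none differed between day 7 and day 42 in WT or in uMT mice, where 0% and 0.043% did. In these limma tests an unadjusted p under 0.05 was reached by 0 of the 8 for the genotype difference at day 7, by 1 at day 42 (Sox10), by 1 for the difference between days in WT mice (S100b) and by 3 in uMT mice (Mbp, Sox10 and Cdh19, the last with a pair of its groups below background). Averaged over the 5 conditions, uMT and WT mice differed in none of the 8 in limma (1 at an unadjusted p under 0.05, Sox10), against 2.97% of all genes. These shares of all genes are for adjusted p values. They are no background for the counts at an unadjusted p, for which no share is given. Without the array that stood apart Sox10 was higher in uMT mice by 0.43 ± 0.14 (adjusted p = 0.0277), against 25.9%. Its group means lay furthest apart in CaCl2 day 42, at 0.16 in uMT and -1.38 in WT mice. In CaCl2 day 7 uMT mice were the lower, at -1.89 against -1.52. Slide and genotype can hardly be told apart here.

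The sham operation was also compared with the aorta before it. Each gene was taken at its brightest probe, so the fall of Mbp probe 3 in uMT mice at day 7 is not counted. None of the 8 passed in WT mice at day 7 (2.37% of all genes passed) or at day 42 (0.168%), or in uMT mice at day 7 (2.54%). At an unadjusted p under 0.05 limma gave 2 (Scn7a and Mag), 1 (Mag) and 2 (Scn7a and Mag) of the 8 there. The shares of all genes are for adjusted p values and are no background for these counts. In uMT mice at day 42, 3 passed: Mag higher, Scn7a and Pmp22 lower, against 17.4% of all genes. The adjusted p values of these 3 lay between 0.043 and 0.0485. Of the 6 arrays compared, leaving out any 1 left at most 1 of the 3. Without the array that stood apart, which is none of those 6, 4 passed there (Mag higher, S100b, Scn7a and Pmp22 lower), against 40.3% of all genes, and 1 in uMT mice at day 7 (Scn7a, lower), against 12.9%. Their adjusted p values at day 42 were 0.00935 for Mag, 0.0222 for S100b, 0.00982 for Scn7a and 0.00145 for Pmp22.

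Further genes of the same cells were taken from lists. Their counts stand beside the shares of all genes that passed, 6.59% and 10.4% in WT mice at days 7 and 42 and 0.894% and 6.33% in uMT mice, or 18.4%, 12.3%, 9.82% and 15% without the array that stood apart. The other Schwann cell identity genes had 19 of 22 measured. In uMT mice at day 42, 6 rose with CaCl2, among them Egr2, a regulator of myelination that macrophages also use (2.32 ± 0.57, adjusted p = 0.0148), Fabp7, a fatty acid binding protein of immature glia (2.09 ± 0.51, adjusted p = 0.0143), Cmtm5 (1.94 ± 0.40, adjusted p = 0.00462), Lgi4, a secreted protein needed for myelination (1.68 ± 0.22, adjusted p = 8.46e-05), and Matn2, a matrix protein (1.28 ± 0.36, adjusted p = 0.034). The receptor phosphatase Ptprz1 fell by 2.43 ± 0.63 (adjusted p = 0.0213). In WT mice at day 42, 2 of the 19 rose (Fabp7 and Matn2) and Ptprz1 fell, and at day 7 none rose and 3 fell (Ncam1, Art3 and Ptprz1). None of the 19 passed in uMT mice at day 7, Egr2 being nearest in size among those that rose elsewhere (1.24 ± 0.57, adjusted p = 0.303). No gene of this list differed between genotypes in its response by limma. Without the array that stood apart, 8 rose and 2 fell in uMT mice at day 42, and 2 rose and 2 fell in WT mice. The median change of the list at day 42 was 1.01 in uMT and 0.57 in WT mice, beside -0.04 and 0.05 over all genes. The sum of the unlogged levels of the 19, in units of the 75th percentile, did not rise in this way. At day 7 it was lower after CaCl2, at 43.2 to 58.5 against 79.0 to 82.7 in WT and 39.1 to 75.2 against 78.5 to 85.8 in uMT mice. At day 42 CaCl2 and sham overlapped, with 56.7 to 61.6 against 43.7 to 72.2 in WT and 64.0 to 85.3 against 49.8 to 80.0 in uMT mice.

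Lgi4, like Sox10, had its 3 highest arrays in uMT CaCl2 day 42. It ran from 3.39 to 3.55 there, and its other arrays lay at 2.57 or below. Erbb3, the receptor through which axons signal to Schwann cells, was dim. It was well above background on all 3 arrays of uMT sham day 7 alone, and was kept through that group. It passed in none of the 4 CaCl2 comparisons (differences from -1.20 to 0.32, adjusted p from 0.589 to 0.905), which says little so close to background. The -1.20 was against that same group, with no uMT CaCl2 array of day 7 well above background.

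Among the other genes of myelin and of the node of Ranvier, the gap between myelin segments, 13 of 17 were measured. Nfasc, a node adhesion protein, rose by 1.77 ± 0.51 at day 7 (adjusted p = 0.0378) and by 2.95 ± 0.51 at day 42 (adjusted p = 9.44e-04) in WT mice and by 2.62 ± 0.51 at day 42 in uMT mice (adjusted p = 0.00291). Nrcam, another node adhesion protein, also rose in uMT mice at day 42 (1.59 ± 0.45, adjusted p = 0.035), and no gene of this list fell there. In WT mice Nfasc was the 1 gene of the 13 that passed at either day. Without the array that stood apart 5 of the 13 rose in uMT mice at day 42, and 2 and 3 in WT mice at days 7 and 42. The myelin genes Pmp2, Pllp and Cldn19 were well above background on 0, 1 and 3 of 30 arrays. No change is therefore given for them. Of 8 enzymes that make myelin lipids, 6 were measured, none of them rose in any of the 4 comparisons, and Fdft1 fell in WT mice at day 7 (-1.03 ± 0.28, adjusted p = 0.0299).

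Of 13 genes that Schwann cells turn on after nerve injury, 9 were measured. In uMT mice at day 42 the growth-associated protein Gap43 rose by 2.05 ± 0.42 (adjusted p = 0.00427). Ngfr, the low-affinity neurotrophin receptor, was higher there too (adjusted p = 0.0356), with means of -1.57 after CaCl2 and -3.20 in sham. It was well above background on 2 of 3 CaCl2 arrays and on no sham array, so no least fold is given. Jun, the regulator of the repair program, did not pass in any of the 4 comparisons (from -1.11 to 0.23, adjusted p from 0.0965 to 0.862). Nrg1, the growth factor that acts on Erbb3, rose in WT mice at day 7 by 2.43 ± 0.72 (adjusted p = 0.0443), and Btc fell by 3.17 ± 0.74 (adjusted p = 0.0127). Shh, Olig1 and Sox2 were above background on no array and Gdnf on 2.

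Among genes of axons and neurons, 14 of 23 were measured. Of the 14, 2 rose in WT mice at day 7, 0 at day 42, 1 in uMT mice at day 7 and 2 at day 42, and none fell in these limma tests. Uchl1 fell in WT mice at both days and in uMT mice at day 7 when the array that stood apart was left out. The neuronal tubulin Tubb3 rose in 3 of the 4 comparisons, by 2.23 ± 0.47 in WT mice at day 7 (adjusted p = 0.00749), 1.94 ± 0.47 in uMT mice at day 7 (adjusted p = 0.0484) and 2.27 ± 0.47 in uMT mice at day 42 (adjusted p = 0.00446). The neuropeptide gene Npy rose in uMT mice at day 42 by 3.17 ± 0.89 (adjusted p = 0.0323). The substance P precursor Tac1 was at least 4.41-fold higher in WT mice at day 7 (adjusted p = 0.0139). Summed levels, here and elsewhere, add unlogged levels, so the brightest genes of a list weigh most in them. The summed level of the 14, in units of the 75th percentile, ran lower after CaCl2 in WT mice, from 54.1 to 90.2 against 104 to 124 in sham at day 7 and from 84.9 to 116 against 136 to 245 at day 42. In uMT mice the groups overlapped, with 77.7 to 396 against 99.7 to 113 at day 7 and 288 to 408 against 271 to 628 at day 42. The 3 neurofilament genes were not measured: Nefl and Nefh were above background on 1 array each and Nefm on none.

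**Figure D4:**
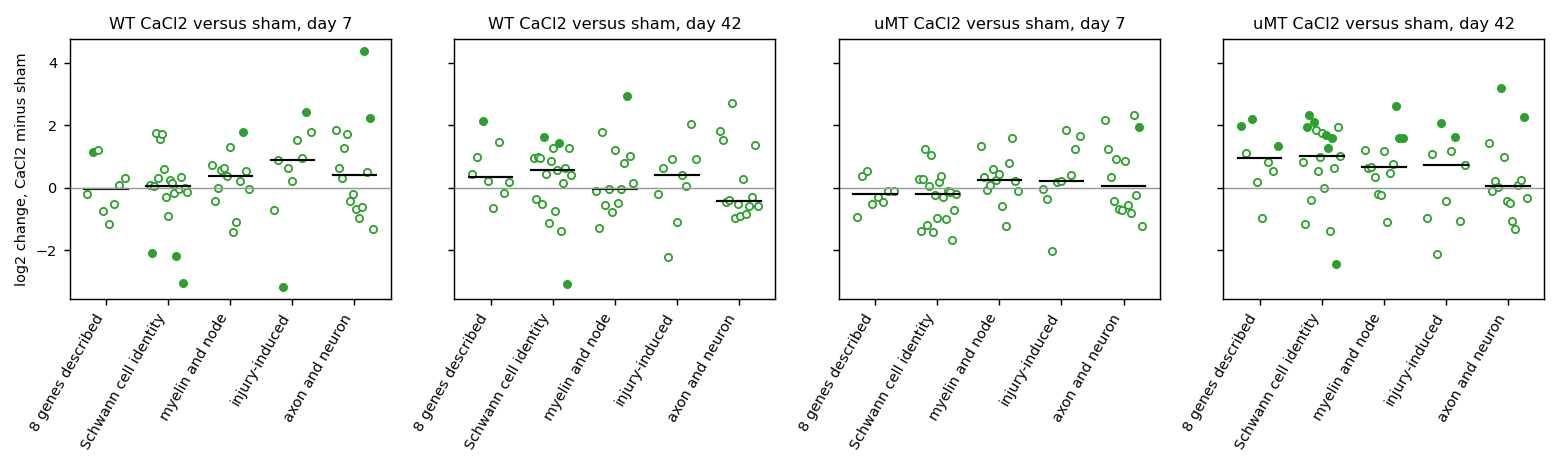
Change from sham to CaCl2 (log2) of the measured genes of 5 lists in the 4 comparisons; a point is a gene, filled where its adjusted p is under 0.05, and a line is the median of the list. Filled points above zero were most frequent in uMT mice at day 42, where the medians of the 8 genes and of the Schwann cell identity list were 0.96 and 1.01.

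Across arrays the 8 genes did not move as 1 block. Over the 29 arrays without the one that stood apart, Pearson's r was 0.77 between Mbp and Mag and 0.67 between Sox10 and Cdh19, but 0.22 between Mbp and Sox10. S100b and Scn7a had r = 0.65. Prx ran against Mbp (r = -0.77) and Mag (r = -0.70), and Pmp22 against Mag (r = -0.66). These values describe arrays that share groups and slides. The genes whose pattern was most like the mean z-score of the 8 over 30 arrays were Plekhb1 (r = 0.893), Kcna1 (r = 0.840), Cyp2j9 (r = 0.818), Il1rl1 (r = 0.780), Lgi4 (r = 0.778), Gfra3 (r = 0.768), Abi3bp (r = 0.747) and Cd163l1 (r = 0.746). Over the 29 arrays Plekhb1, Cyp2j9 and Kcna1 held ranks 1, 2 and 3 and Lgi4 rank 7, while Il1rl1, Abi3bp, Gfra3 and Cd163l1 moved to ranks 12, 13, 14 and 21. Lgi4 was at rank 25 with quantile normalization and 27 in the authors' matrix. Kcna1, Lgi4 and Gfra3 were themselves on the Schwann cell identity list.

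Markers of other cells moved with CaCl2 too, and their part in the results for the 8 genes was not tested. On the average of the 4 comparisons 27.1% of all genes passed, and of the smooth muscle markers all 9 fell. Their summed level ran from 2958 to 6563 in WT sham day 42 and from 789 to 1378 in WT CaCl2 day 42, in units of the 75th percentile, and from 2653 to 5118 against 776 to 1823 in uMT mice. Of the macrophage markers 7 of 8 rose and 1 fell. Their sum ran from 15.8 to 113 in WT sham and from 228 to 372 in WT CaCl2 at day 42, and from 38.5 to 118 against 227 to 344 in uMT mice. White adipocyte markers fell in 5 of 9 and rose in 1, cartilage markers rose in 5 of 8 and fell in 1, fibroblast markers rose in 5 of 9, and endothelial markers fell in 3 of 8, each on that average. Of the 4 measured melanocyte markers Mlana rose in uMT mice at day 42 by 2.32 ± 0.68 (adjusted p = 0.0422). Their sum ran from 8.35 to 13.8 in uMT CaCl2 day 42 and from 6.43 to 6.70 in its sham group, and from 5.28 to 13.1 over the other 8 groups. The melanocyte markers Tyrp1 and Dct were above background on 0 and at most 4 arrays. Of the oligodendrocyte markers, the glia that make myelin in the brain, Olig2 was above background on 1 array and Opalin on 0. Mog and Ermn were measured and changed in none of the 4 comparisons over all 30 arrays, where Ermn gave 1.38 ± 0.83 and 1.94 ± 0.83 at day 7 in WT and uMT mice (adjusted p = 0.382 and 0.263). Ermn rose in uMT mice at day 7 without the array that stood apart (1.94 ± 0.51, adjusted p = 0.0234). The sum of both genes ran from 75.4 to 143 in WT CaCl2 and from 34.1 to 49.9 in WT sham at day 7, and from 106.9 to 254 against 23.9 to 69.1 in uMT mice. At day 42 the groups overlapped, with 108 to 134 against 35.6 to 1287 in WT mice and 191 to 361 against 115 to 482 in uMT mice.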

How the data were processed

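The deposited spot intensity values were made by the authors with Agilent Feature Extraction 10.7.1.1, per the file headers (9.5.1.1 per the submitters' processing notes), which subtracts background; positions are mm9. The records name RNeasy and SV Total RNA kits without saying which samples had which. The authors' deposited matrix of normalized intensity values served as an alternative.

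Spots of a probe were averaged, 24 flagged probes were left out, and log2 signals were centred on the 75th percentile of each array. Probes well above background on all 3 arrays of at least 1 group were kept (33224), and each gene was represented by its brightest kept probe. limma 3.58.1 (R 4.3.3) fitted 10 group means over 30 arrays (20 residual degrees of freedom) in 14 comparisons, with Benjamini-Hochberg adjustment at 0.05, checked on simulated data. The simulated arrays had no slide effect and no array that stood apart, so the check does not cover these. "At least" marks a fold against a group below background on all its arrays: the brighter mean over the mean of, per array, the higher of the probe's own signal and the lowest signal well above background. No spot was saturated.

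The 8 genes and the lists were chosen with earlier results of these data known. Genes named from a list were those past the threshold, up to 4 in each direction, plus Egr2, Erbb3, Ngfr, Jun, Gap43, Mog and Olig2; further names were chosen after their values were seen, and some genes of the rule are not reported here. The alternatives were other normalizations, filters, probe choices, arrays and blocks.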

Additional observations from a re-analysis of the deposited data

How the results depend on the processing

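Of the 8 genes, 1 passed in WT mice at day 7 of CaCl2 against sham. That count was 0 with quantile normalization, the authors' matrix, no filter, a replicate block, or the slide as a random or fixed block, and 4 with the compared groups only, without WT sham day 42 replicate 2, with the slide as a random block and without that array, or without the 6 dim arrays. With the slide as a fixed block the Mag difference there turned to -0.030 (adjusted p = 0.990), from arrays of other groups that share slides. At day 42 in WT mice, where 1 passed, the count was 2 with normexp and quantile normalization, the percentile over probes well above background everywhere, the filter of 15 arrays or the mean of a gene's probes. It was 3 with quantile normalization, the authors' matrix or without the 6 dim arrays, and 0 with the compared groups only or the slide as a random or fixed block. In uMT mice at day 42, where 3 passed, it was 1 with the compared groups only, 5 without WT sham day 42 replicate 2, 6 with the slide block as well, and 0 with the slide as a random block alone or without the 6 dim arrays. The average of the 4 comparisons fell from 4 to 0 with the slide as a random block over all arrays, where the estimated correlation within a slide was 0.782 (-0.07 without that array). For uMT against WT the count went from 0 to 1 with normexp or without that array, and to 2 with the slide block as well. Sham against pre went from 0 to 2 in WT mice at day 7 with the compared groups only, and from 0 to 1 in uMT mice at day 7 without that array, with or without the slide block. In uMT mice at day 42 it went from 3 to 1 with the percentile over probes well above background everywhere, and to 0 with normexp, quantile normalization, the authors' matrix, no filter, the compared groups only, the replicate block or without the 6 dim arrays, and to 4 without WT sham day 42 replicate 2. Without the 6 dim arrays each uMT group of day 42 keeps 1 array, assumed to vary like the other groups. The number of all genes that passed moved with the setting too. Over the alternatives it ran from 53 to 7849 in WT mice at day 7 (1534 in the main fit) and from 0 to 6220 at day 42 (2417). In uMT mice at day 42 it ran from 0 to 4879 (1473), and on the average from 0 to 12415 (6295). For uMT sham day 42 against pre it ran from 246 to 9551 (4050). The causes were not tested.

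Leaving out 1 array of the compared groups at a time gave counts of 0 to 0 in WT mice at day 7, 0 to 3 at day 42 (0 without WT CaCl2 day 42 replicate 3), 1 to 3 in uMT mice at day 42, 3 to 5 on the average, 0 to 1 for uMT against WT, and, for sham against pre, 0 to 1 in WT mice at day 42, in uMT mice at day 7 and in uMT mice at day 42. The other counts were 0 throughout. Same-numbered arrays did not deviate together (correlations from -0.378 to 0.211), and the replicate block gave 0, 1, 0 and 3 of the 8 in the 4 CaCl2 comparisons (WT day 7, WT day 42, uMT day 7, uMT day 42).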

Other observations

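On WT sham day 42 replicate 2, which had 36.5% of its probes well above background, probes of the same gene parted. Pmp22 read 3.28 at its brighter probe, the lowest of all 30 arrays, and 5.06 at the second, the highest of all 30. Mbp read -2.02 at probe 1, the lowest of 30, and -0.02 at probe 2, the highest of 30. S100b was at its lowest there (-0.55) and Scn7a at its highest (1.40).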
